A study of Mus musculus with 6 samples.

Results

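The cytosolic ribosomal protein genes are the protein-coding genes whose symbol names a protein of the small subunit (Rps genes and Rpsa) or of the large subunit (Rpl and Rplp genes) of the ribosome. Chosen by symbol and gene type alone, they numbered 76 of the 54532 genes in the deposited table, 30 of the small and 46 of the large subunit. They were measured by RNA-seq in epidermis peeled from newborn mouse skin after an overnight digestion with the protease Dispase II. Of the 6 libraries, 3 were labelled Paxbp1 knockout and the other 3 wild type. Paxbp1 encodes a nuclear protein first described as a partner of the transcription factors Pax3 and Pax7. The labels give no Cre driver, promoter, strain or deleted part of Paxbp1, and do not say whether a library is 1 animal or a pool.

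The ribosome is built from ribosomal RNA and one copy each of most of these proteins, so their mRNAs are needed in matched amounts and are among the most abundant of any growing cell. Most of them carry a run of pyrimidines at the very start of the transcript, the terminal oligopyrimidine (TOP) motif, through which the mTOR pathway and the RNA-binding protein Larp1 control their translation and stability. In skin, mutations of single genes of the family have visible effects in mice: Rps19 and Rps20 mutants have dark skin, and mutants of Rpl24 (Belly spot and tail), Rpl38 (Tail short) and Rpl27a (Sooty foot ataxia) carry names taken from their coat or skeleton.

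Some facts of the whole series touch every value below. Library totals were 16643839 to 17816327 counts in the libraries labelled knockout and 16315317 to 17802056 counts in wild type. Paxbp1 itself had 2370, 1127 and 1125 counts in the libraries labelled knockout, against 2007, 1159 and 1467 in wild type. The groups overlapped, and since a gene's total count does not show whether single exons are missing, knockout and wild type stand below for the labels only. The 8 markers of basal keratinocytes were all lower, with a summed level of 1999 to 5077 CPM (counts scaled to library size with TMM normalization factors) in the libraries labelled knockout and 20020 to 22111 CPM in wild type. The 8 suprabasal keratinocyte markers were lower as well, at 2995 to 7534 CPM in knockout and 66921 to 121572 CPM in wild type. All 10 macrophage markers were higher, at 9821 to 18506 CPM in knockout and 140 to 157 CPM in wild type, as were all 8 neutrophil markers, at 3520 to 8588 CPM against 2.28 to 3.00 CPM, with Retnlg at 0 in wild type. Of 8 fibroblast markers 7 were higher and 1 lower (3574 to 9247 CPM in knockout, 452 to 458 CPM in wild type), and all 6 erythroid markers were higher (956 to 1915 CPM in knockout, 3.87 to 8.01 CPM in wild type). Their part in the results on ribosomal protein genes was not tested.

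The start of the transcript is shown for 6 members, because the TOP motif is what the family is known for, from members with different fold changes: Rpl28 and Rpl15 were called lower in the libraries labelled knockout, Rps6 and Rplp2 were negative and not called, and Rpl38 and Rps10 had positive values with TMM factors. Each line gives 10 bases before and 20 bases after the start annotated by RefSeq on GRCm38.p6, with the run of C and T nearest the start in capitals, read 5′ to 3′ on the coding strand.
Rpl28 (chr7:4792955-4792984, plus strand): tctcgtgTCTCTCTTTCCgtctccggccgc
Rpl15 (chr14:18270967-18270996, minus strand): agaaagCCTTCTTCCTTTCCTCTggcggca
Rps6 (chr4:86857348-86857377, minus strand): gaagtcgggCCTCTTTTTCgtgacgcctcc
Rplp2 (chr7:141447641-141447670, plus strand): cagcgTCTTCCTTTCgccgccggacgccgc
Rpl38 (chr11:114668570-114668599, plus strand): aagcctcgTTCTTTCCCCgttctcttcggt
Rps10 (chr17:27635225-27635254, minus strand): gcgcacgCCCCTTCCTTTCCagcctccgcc

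All 6 windows hold such a run, of 10 to 17 bases, and were picked to show it. Not every member has one of this length: the longest run near the start was 7 bases in Rplp0, which was called lower, and 5 bases in Rpl24, which was not. Of the 76 members, 56 had a sequence in the RefSeq promoter table, which covers 250 bases before to 50 bases after the start. A run of at least 8 pyrimidines lay between 20 bases before and 50 bases after the start in 45 of these 56 members (80.4%), against 28.4% of 26969 other genes. The letters CGGAAG, which hold the core of sites bound by ETS-family transcription factors, occurred on either strand in 39 of 56 members (69.6%) and in 18.7% of the other genes. AAGATGGC, which resembles the YY1 motif, was found on either strand in 8.93% of members and 3.18% of other genes, and TATAAA, read on the coding strand only, in 8.93% of members and 9.77% of other genes. These are matches of letters and were not tested as binding sites.

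The 250 bases before the start are shown for Rpl15, which was called lower, and Rpl38, which was not, with each CGGAAG in capitals. Both hold 2 copies on the coding strand, apart in Rpl15 and side by side in Rpl38.
Rpl15 (chr14:18270987-18271236, minus strand): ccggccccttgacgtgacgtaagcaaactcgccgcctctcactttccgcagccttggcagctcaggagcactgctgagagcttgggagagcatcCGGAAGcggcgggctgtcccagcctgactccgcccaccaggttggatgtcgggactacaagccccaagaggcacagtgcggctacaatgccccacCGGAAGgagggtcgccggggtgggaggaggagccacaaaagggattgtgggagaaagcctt
Rpl38 (chr11:114668330-114668579, plus strand): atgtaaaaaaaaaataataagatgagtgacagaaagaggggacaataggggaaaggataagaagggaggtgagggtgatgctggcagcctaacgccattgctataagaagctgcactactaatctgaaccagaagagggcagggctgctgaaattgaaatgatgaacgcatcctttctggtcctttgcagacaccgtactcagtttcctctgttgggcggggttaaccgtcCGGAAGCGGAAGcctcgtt

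As a whole, the family took a smaller part of the counts in the libraries labelled knockout. Its 76 genes held 3.62%, 5.74% and 3.03% of all counts in knockout replicates 1 to 3, and 6.20%, 7.54% and 8.53% in wild type replicates 1 to 3. Every library labelled knockout lay below every wild type library, with knockout replicate 2 close to wild type replicate 1. This order depended on the scale: the members' summed FPKM was 38377 in knockout replicate 2 and 31342 in wild type replicate 1, and their median level with TMM factors 845 and 664 CPM in the same libraries. The library totals behind these FPKM values were 15486600 and 19109100, against 17376752 and 16315317 counts. The TMM factors, 0.882 and 1.13, shift the same libraries in the same directions. FPKM and TMM levels are therefore not independent scales here. The mean share was 4.13 ± 1.42% in knockout and 7.42 ± 1.17% in wild type (SD, n = 3 each), a ratio of 0.557. The exact two-sided permutation test over libraries gave p = 0.1, the smallest p that 3 against 3 libraries allow. Counting error was small beside these differences, since the exact 95% binomial interval of the first knockout library was 3.61 to 3.63%. In bulk tissue, fewer cells of a type and less RNA per cell cannot be told apart.

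Both subunits showed this difference. The small subunit held 1.75 ± 0.622% of the counts in knockout and 3.11 ± 0.502% in wild type, and the large subunit 2.38 ± 0.802% in knockout and 4.31 ± 0.668% in wild type (SD, n = 3 each, exact permutation p = 0.1 for each). The ratio of small to large subunit counts was 0.716, 0.748 and 0.733 in knockout and 0.714, 0.732 and 0.723 in wild type. The groups overlapped in this ratio, with means of 0.732 ± 0.0159 in knockout and 0.723 ± 0.00896 in wild type (exact permutation p = 0.4). Between libraries with the same replicate number, the ratio was higher in knockout in 3 of 3 pairs, by 0.00225, 0.0162 and 0.0104 (exact sign-flip permutation p = 0.25, the smallest that 3 pairs allow). Genes for the proteins of the mitochondrial ribosome, which is a separate particle, held 0.226 ± 0.0379% of the counts in knockout and 0.266 ± 0.0143% in wild type (exact permutation p = 0.2). The named pseudogenes of the family, copies of these mRNAs to which reads can be assigned, held 0.197 ± 0.0614% in knockout and 0.327 ± 0.0477% in wild type (exact permutation p = 0.1).

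**Figure D1:**
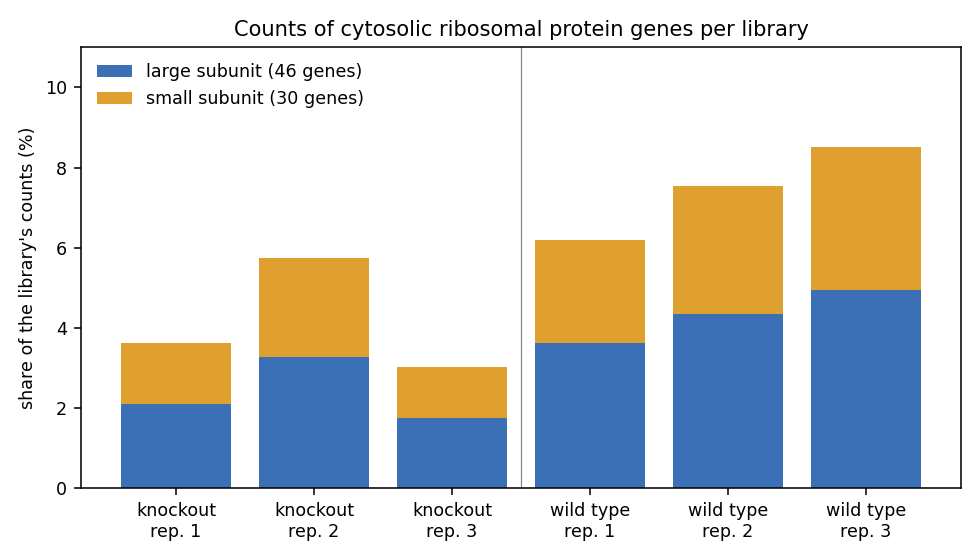
Share of each library's counts (%, vertical axis) held by the 46 large and 30 small subunit genes, one bar per library, with the 3 libraries labelled knockout on the left and the 3 wild type libraries on the right. Knockout replicate 2, at 5.74%, is close to wild type replicate 1, at 6.20%, and the other 2 libraries labelled knockout lie at 3.62% and 3.03%.

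The test of single genes (edgeR's quasi-likelihood test, Benjamini-Hochberg adjusted over 16471 genes, called under an adjusted p of 0.05) included all 76 members. Of these, 11 were called lower in the libraries labelled knockout (14.5%) and 0 higher, while over all genes tested 25.1% were called lower and 28.7% higher. Whether the members' share lay below or above the background depended on the fit. With the replicate number as a block, 50% of members were called lower against 29.1% of all genes, with library size only 53.9% against 28.6%, with upper-quartile scaling 44.7% against 31.2%, with DESeq2 36.8% against 24.9%, with limma-voom 31.6% against 26.6% and without a filter 30.3% against 14.9%. The log2 fold change was negative in 73 of 76 members. It was positive in Rps10, Rpl38 and Rpl24, of which the last 2 turned negative with upper-quartile and library-size scaling. At an unadjusted p under 0.05, 25 of 76 members were lower and 0 higher. Of all 16471 genes tested, 9726 passed this cut in either direction, a larger share. DESeq2 and limma-voom also called 0 members higher. By subunit, 2 of 30 small and 9 of 46 large subunit genes were called lower. This contrast too depended on the fit, with 14 small and 14 large called by DESeq2 and 15 and 23 with the block.

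Sizes were modest and close to each other. The median log2 fold change was -0.61 in the small and -0.62 in the large subunit, against -0.03 over all genes tested. Members ran from -1.22 to 0.28 with a standard deviation of 0.28, while all genes had a standard deviation of 2.45. Among the 599 other genes at or above the members' 10th percentile of mean level (224 CPM), the median was 0.60, with 48.6% called higher and 21.9% lower. A gene near 0 in wild type can pass this cut through the libraries labelled knockout alone. Values in this set reached 17.4, with a standard deviation of 3.27. Its median and shares depend partly on the cut and are not a level-matched contrast to the members.

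**Figure D2:**
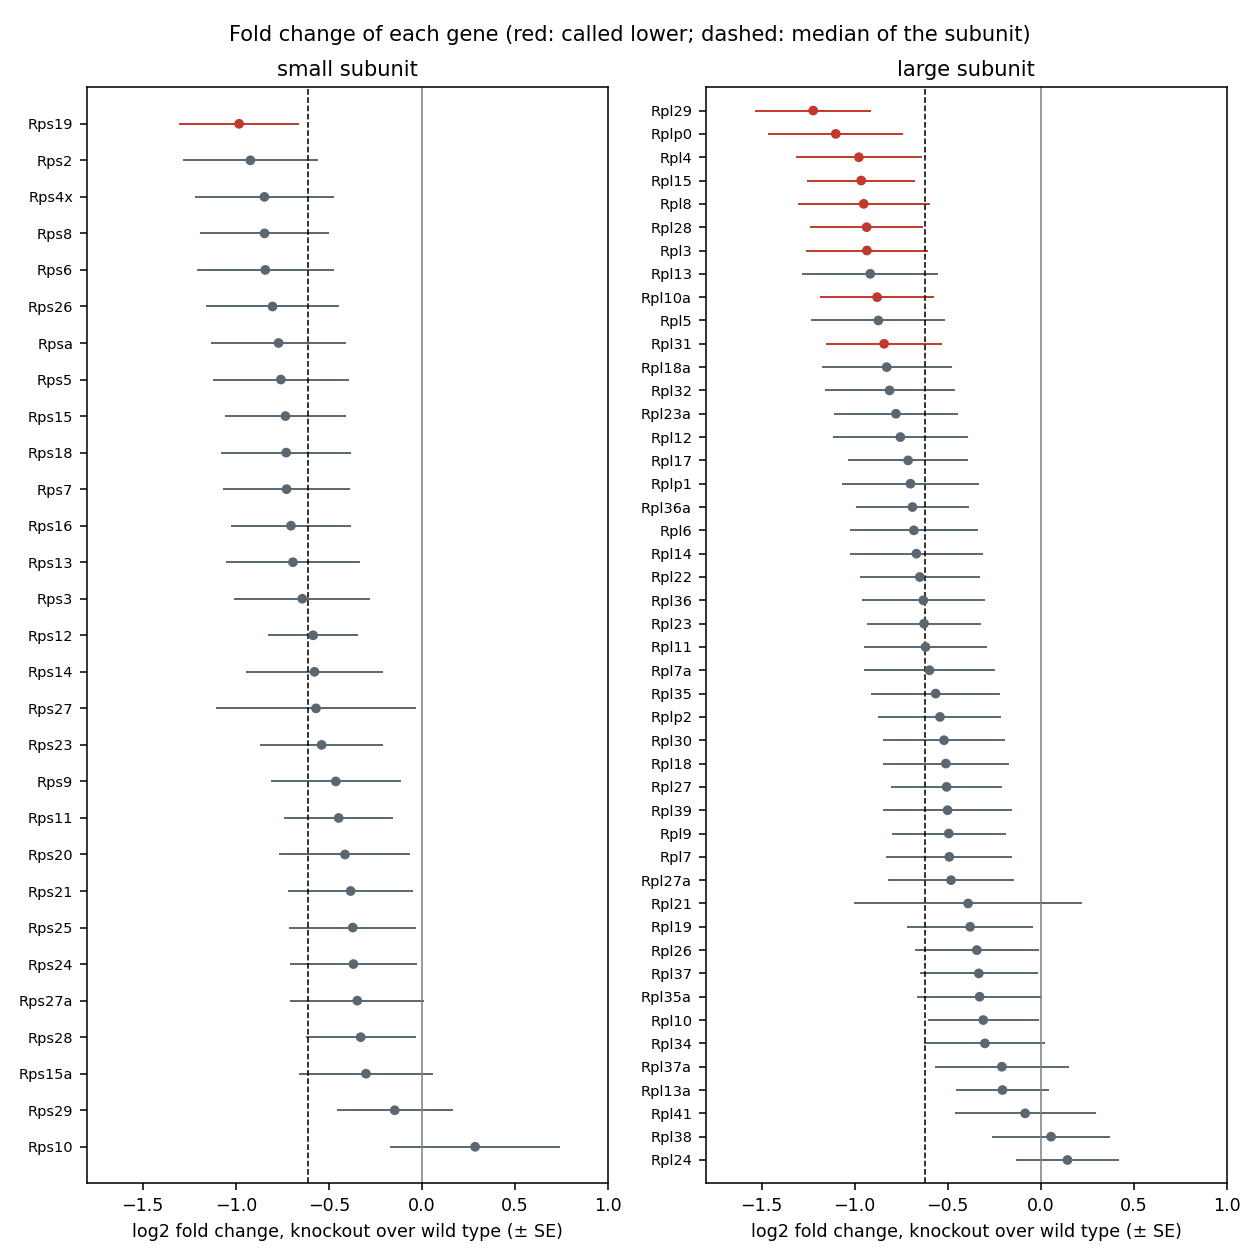
Log2 fold change of 75 of the 76 genes (horizontal axis, knockout over wild type, bars ± SE) for the small subunit on the left and the large subunit on the right, sorted by value. Red marks genes called lower, and the dashed lines are the medians over all 30 and 46 genes, -0.61 and -0.62. Rps10, Rpl38 and Rpl24 lie above 0 with the TMM factors used here, and Rpl38 and Rpl24 did not with upper-quartile or library-size scaling.

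The libraries differed more from each other within a group than the fold changes alone show. Knockout replicate 2 was the highest of the libraries labelled knockout in 75 of 76 members and exceeded wild type replicate 1 in 63. Knockout replicates 1 and 3 lay below every wild type library in 72 members. Wild type replicate 1 was the lowest wild type library in 70 members. The median member level was 438, 845 and 440 CPM in knockout and 664, 884 and 957 CPM in wild type. All 3 libraries labelled knockout lay below all 3 wild type libraries in 12 members, the 11 called and Rps12 (adjusted p = 0.0605; 0.0240 with the replicate block), and above them in 0, while this held for 30.4% of all genes tested below and 31.9% above. Among the libraries labelled knockout, replicate 2 was also the highest in the summed neutrophil markers (8588 CPM, against 3520 and 6745 CPM in replicates 1 and 3), suprabasal keratinocyte markers (7534 CPM, against 7398 and 2995 CPM) and melanocyte markers (341 CPM, against 204 and 289 CPM). The same held for the sparse lymphocyte markers (14.6 CPM). Of the 6 melanocyte markers 2 were called higher and 2 lower, so their sum mixes directions. Replicate 2 lay between the other 2 in basal keratinocyte markers (4833 CPM, against 5077 and 1999 CPM) and macrophage markers (15077 CPM, against 9821 and 18506 CPM). It also lay between them in fibroblast (7181 CPM), erythroid (1795 CPM), endothelial (266 CPM), skeletal muscle (13.3 CPM) and adipocyte markers (430 CPM). The part of these cells in the level of replicate 2 was not tested.

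**Figure D3:**
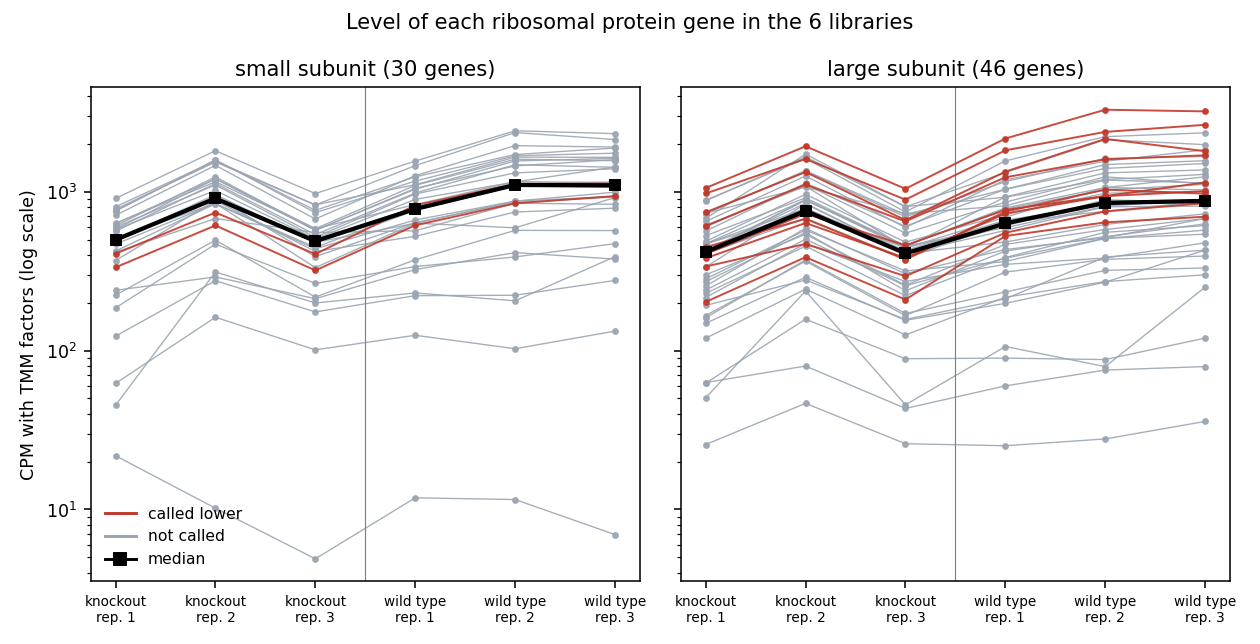
Level of each gene (CPM with TMM factors, log scale) in the 3 libraries labelled knockout and the 3 wild type libraries, one line per gene, small subunit on the left and large subunit on the right. Red lines are genes called lower, grey lines are genes not called and the black line is the median of the subunit. Knockout replicate 2 stands above the other 2 libraries labelled knockout in nearly all lines, and wild type replicate 1 below the other 2 wild type libraries.

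How many members were called depended on single libraries. Without knockout replicate 2, 59 members were called lower (22 small, 37 large; background 23.6% lower and 26.8% higher) and the medians were -1.06 and -1.01. Without knockout replicate 1 the count was 3 (3.95% of members, 26.2% of all genes lower), and without wild type replicate 1 it was 16 (21.1%, 20.4%). Without knockout replicate 3, wild type replicate 2 or wild type replicate 3 it was 1 each (1.32% of members), beside 21.7%, 20.6% and 19.6% of all genes. In a fit with the replicate number as a block, 38 members were called lower (15 small, 23 large) and 0 higher, against a background of 29.1% lower and 30.9% higher. When the members' own summed count served as library size, an alternative added after seeing the data, 0 members were called in either direction, with values from -0.55 for Rpl29 to 1.06 for Rps10. This scale centres the members near 0 by construction, so it shows only how they differ among themselves. The background there was 8.63% lower and 36.2% higher, so that 80.8% of all calls were higher, against 53.3% with TMM factors.

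Among the core proteins of the large subunit, Rpl29 (ENSMUSG00000048758, chr9:106429454-106431568 in mm10), a small basic protein, had the lowest fold change of the family. Its level was 203, 388 and 210 CPM in knockout and 527, 642 and 698 CPM in wild type. The groups stood clear of each other. The means were 267 ± 105 CPM in knockout and 623 ± 87.0 CPM in wild type (SD, n = 3 each), a log2 fold change of -1.22 ± 0.31 (SE; edgeR adjusted p = 0.00652), or 2.33-fold lower. It was called in each of the 6 fits that left out 1 library, with adjusted p up to 0.0308, and was the only one of the 11 called members that was.

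Rpl4 (ENSMUSG00000032399, chr9:64173375-64178666), whose long loop lines the exit tunnel of the nascent chain, had 977, 1611 and 893 CPM in knockout and 1826, 2386 and 2643 CPM in wild type. Its log2 fold change was -0.98 ± 0.34 (adjusted p = 0.0308). Rpl15 (ENSMUSG00000012405, chr14:18267823-18271391) had 339, 470 and 295 CPM in knockout and 552, 753 and 849 CPM in wild type, with a log2 fold change of -0.97 ± 0.29 (adjusted p = 0.0162). In both genes knockout replicate 2 came nearest to wild type replicate 1 without reaching it. Rpl8 (ENSMUSG00000003970, chr15:76904078-76906314), which lies close to the peptidyl transferase centre, had 743, 1333 and 664 CPM in knockout and 1341, 2155 and 1803 CPM in wild type, so that knockout replicate 2 and wild type replicate 1 were nearly level. Its log2 fold change was -0.95 ± 0.36 (adjusted p = 0.0423), and the call was lost on deposited FPKM values, with adjusted p of 0.0627 at a pseudocount of 1 and 0.0583 at 0.1. Rpl28 (ENSMUSG00000030432, chr7:4792874-4795066) had 382, 637 and 383 CPM in knockout and 731, 940 and 1011 CPM in wild type. Its groups were apart, with a log2 fold change of -0.94 ± 0.30 (adjusted p = 0.0226).

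Leaving out 1 library took these calls away in several cases. Without knockout replicate 1, adjusted p was 0.0635 for Rpl4 and 0.0892 for Rpl8. Without knockout replicate 3 it was 0.102 for Rpl4, 0.0636 for Rpl15, 0.137 for Rpl8 and 0.0809 for Rpl28. Without wild type replicate 2 it was 0.0882 for Rpl4, 0.0514 for Rpl15, 0.149 for Rpl8 and 0.0684 for Rpl28, and without wild type replicate 3 it was 0.108, 0.0727, 0.101 and 0.0824 for the same 4 genes. The other called members of the large subunit were Rpl3 (-0.93), Rpl10a (-0.88) and Rpl31 (-0.84), with adjusted p of 0.0325, 0.0309 and 0.0411.

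The stalk of the large subunit, which recruits the GTPases of translation, consists of Rplp0, Rplp1 and Rplp2, and Rpl12 forms its base together with Rplp0. Rplp0 (ENSMUSG00000067274, chr5:115559467-115563727) had 1057, 1937 and 1046 CPM in knockout and 2166, 3290 and 3211 CPM in wild type. The groups did not overlap, and the log2 fold change was -1.10 ± 0.36 (adjusted p = 0.0242). Without knockout replicate 1, knockout replicate 3, wild type replicate 2 or wild type replicate 3 the adjusted p was 0.0551, 0.0822, 0.0849 and 0.0786.

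Its partners were not called. Rplp1 was the member with the highest level per length, at 2218 ± 931 FPKM in knockout and 3552 ± 891 FPKM in wild type. FPKM scales fragments by gene length and by a library total, which in the deposited values is not the sum of counts. Rplp1 had 878, 1662 and 805 CPM in knockout and 1322, 2131 and 1983 CPM in wild type. Here knockout replicate 2 was above wild type replicate 1, and the log2 fold change was -0.70 ± 0.37 (adjusted p = 0.129; 0.0449 with the replicate block). Rplp2 had 422, 792 and 404 CPM in knockout and 609, 892 and 856 CPM in wild type, with a log2 fold change of -0.54 ± 0.33 (adjusted p = 0.190). Rpl12 had 614, 1085 and 446 CPM in knockout and 929, 1317 and 1375 CPM in wild type, with a log2 fold change of -0.75 ± 0.36 (adjusted p = 0.102; 0.0403 with the block). In Rplp2 and Rpl12 too, knockout replicate 2 exceeded wild type replicate 1.

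Rpl5 and Rpl11 form a particle with 5S ribosomal RNA that, when free of ribosomes, binds Mdm2 and thereby raises p53. Rpl5 had 651, 1258 and 597 CPM in knockout and 1191, 1559 and 1841 CPM in wild type, with a log2 fold change of -0.87 ± 0.36 (adjusted p = 0.0610; 0.0247 with the block). Rpl11 had 530, 916 and 457 CPM in knockout and 780, 1030 and 1115 CPM in wild type, with a log2 fold change of -0.62 ± 0.33 (adjusted p = 0.136; 0.0591 with the block). Neither was called, and both had knockout replicate 2 between the wild type libraries.

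Of the large subunit genes known from mouse mutants of coat or skeleton, Rpl27a had 488, 965 and 482 CPM in knockout and 720, 980 and 1004 CPM in wild type (-0.48 ± 0.34, adjusted p = 0.252). Rpl38 had 62.5, 158 and 89.0 CPM in knockout and 89.8, 87.9 and 120 CPM in wild type. Knockout replicate 2 was the highest of all 6 libraries and knockout replicate 1 the lowest, and the log2 fold change of 0.05 ± 0.32 (adjusted p = 0.897) turned to -0.14 with upper-quartile or library-size scaling. Rpl24 had 25.7, 46.6 and 26.0 CPM in knockout and 25.2, 27.8 and 35.9 CPM in wild type. Its log2 fold change was 0.14 ± 0.27 (adjusted p = 0.687), and -0.19 without knockout replicate 2, the one library labelled knockout that stood above the wild type range; it was -0.05 with upper-quartile and -0.03 with library-size scaling. Rpl13a, which with Rpl24 was among the 2 large subunit genes lowest in FPKM, had 63.0, 80.0 and 43.3 CPM in knockout and 60.0, 75.5 and 79.4 CPM in wild type (-0.21 ± 0.25, adjusted p = 0.512). All of these groups overlapped.

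In the small subunit, Rps19 (ENSMUSG00000040952, chr7:24884371-24889806), needed to mature the small subunit RNA and the first gene found mutated in Diamond-Blackfan anaemia, had 408, 741 and 406 CPM in knockout and 823, 1122 and 1127 CPM in wild type. The groups were apart, at means of 518 ± 193 CPM in knockout and 1024 ± 174 CPM in wild type, and the log2 fold change was -0.98 ± 0.32 (adjusted p = 0.0243), or 1.98-fold lower. Without knockout replicate 1, knockout replicate 3, wild type replicate 2 or wild type replicate 3, adjusted p was 0.0543, 0.0874, 0.0769 and 0.0786 for Rps19.

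Rps2 missed the threshold (-0.92 ± 0.36, adjusted p = 0.0511; 0.0125 with the block). Rps6, whose phosphorylation by S6 kinase is a common readout of mTOR activity, had 581, 1206 and 573 CPM in knockout and 1039, 1566 and 1626 CPM in wild type (-0.84 ± 0.37, adjusted p = 0.0747; 0.0213 with the block). Rpsa, which is also known as a laminin receptor, had 909, 1815 and 976 CPM in knockout and 1563, 2423 and 2326 CPM in wild type (-0.77 ± 0.36, adjusted p = 0.0951; 0.0298 with the block). In each of these knockout replicate 2 was above wild type replicate 1.

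The small subunit genes with the highest level per length were Rps15 (924 ± 345 FPKM in knockout, 1513 ± 303 FPKM in wild type) and Rps14 (738 ± 345 FPKM in knockout, 1085 ± 239 FPKM in wild type), followed by Rps2. Rps15 had a log2 fold change of -0.73 ± 0.33 (adjusted p = 0.0801; 0.0246 with the block) and Rps14, a protein of the platform of the small subunit, one of -0.58 ± 0.37 (adjusted p = 0.211). Rps20, the other gene of the dark skin mutants, had 500, 931 and 391 CPM in knockout and 641, 857 and 929 CPM in wild type (-0.41 ± 0.35, adjusted p = 0.346), with knockout replicate 2 as high as the highest wild type library. Rps27a, made as a fusion with ubiquitin, had a log2 fold change of -0.35 ± 0.36 (adjusted p = 0.441), and Rps15a, one of the 2 small subunit genes lowest in FPKM, one of -0.30 ± 0.36 (adjusted p = 0.507).

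Rps10 was the lowest member of all, at 5.27 ± 3.69 FPKM in knockout and 4.27 ± 1.14 FPKM in wild type. It had 21.8, 10.2 and 4.89 CPM in knockout and 11.8, 11.6 and 6.95 CPM in wild type, so that 1 library labelled knockout was the highest and another the lowest. The log2 fold change was 0.28 ± 0.46 (adjusted p = 0.625). Of the reads counted to Rps10 and its named pseudogenes together, 93.0% were counted to the pseudogenes, against 65.6% for Rpl17 (adjusted p = 0.0830; 0.0485 with the block), 56.2% for Rpl21 and 0.00216% for Rpl29. With the pseudogene counts added, the log2 fold change of Rps10 was -0.56, and without knockout replicate 1 it was -0.42. Smaller shares occurred in other members, such as 23.2% for Rpl38 and 19.6% for Rps16, and in the called Rpl31 (18.7%) and Rpl28 (12.8%). The share was 0 for Rpl24 and Rpl13a, but only named pseudogenes were counted. The level of Rps10, Rpl17 and Rpl21 is therefore uncertain in these counts, and to a lesser degree that of other members with such shares. The number of members called was 11 with or without the pseudogenes.

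Level and coding length, which the choice by symbol did not use, varied with the size of the fold change across the 76 genes. Fold change and mean level (log2 FPKM) had a Pearson r of -0.57 and a Spearman rho of -0.46, and fold change and coding length (log2 bases of the principal transcript) had r of -0.50 and rho of -0.48. The more abundant and the longer coding sequences had the more negative values. The low end of level holds Rps10 and Rpl21, whose level is uncertain because of reads counted to pseudogenes. For level, no value over all genes was computed. Over 14085 tested coding genes the same relation to coding length had r of -0.05 and rho of -0.05. Transcript GC content gave r of -0.12 and rho of -0.16 over the members, and the deposited gene length r of -0.06 and rho of -0.02. These are descriptions across genes that share the same 6 libraries, mean level and fold change come from the same counts, and genes are not independent replicates. The median coding length was 612 bases in the 11 called members and 453 bases in the 65 not called. Of the 76 genes, 29 host a small nucleolar RNA gene on their own strand in the GENCODE M21 annotation, 2 of the 11 called and 27 of the 65 not called.

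**Figure D4:**
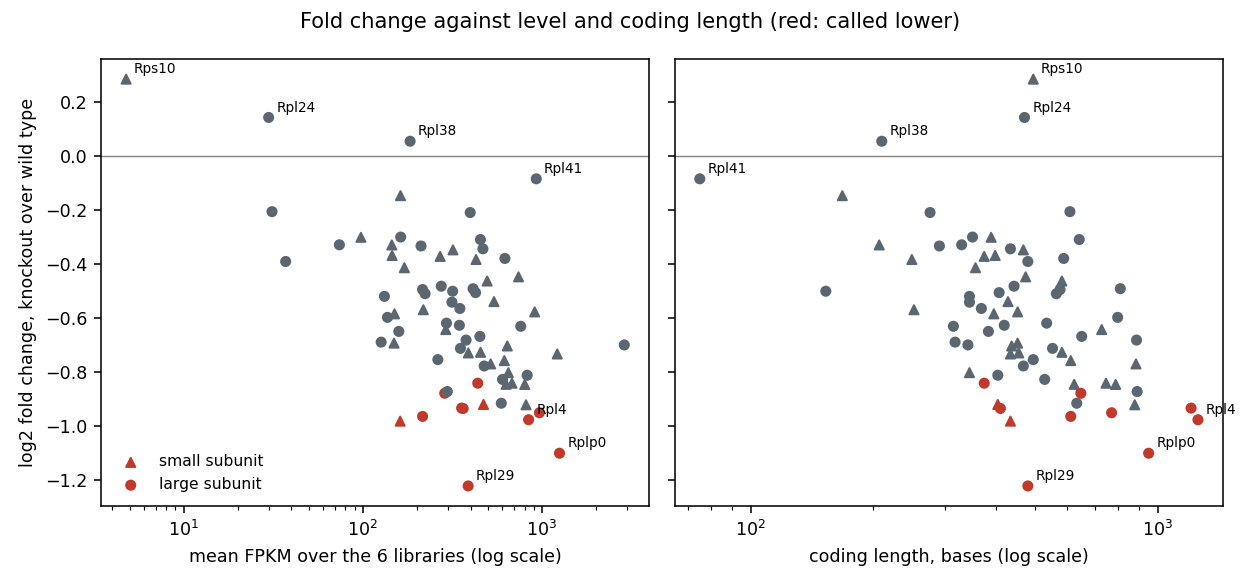
Log2 fold change (vertical axis, knockout over wild type) of the 76 genes against mean FPKM over the 6 libraries on the left and coding length in bases on the right, both on log scales. Triangles are small and circles large subunit genes, and red marks the 11 called lower. Rps10 and Rpl24, which have positive values with TMM factors (Rpl24 not with upper-quartile scaling), are the 2 members lowest in FPKM, and Rpl41, with 75 coding bases, the shortest, lies near 0. The level of Rps10 is uncertain because of reads counted to its pseudogenes.

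Ribosomal proteins whose symbols fall outside the rule gave 1 gene higher and 1 lower of 11 tested (9.09% each), beside 28.7% higher and 25.1% lower over all genes. Rack1, a signalling scaffold on the small subunit, fell in the libraries labelled knockout, with 750 ± 267 CPM in knockout and 1474 ± 321 CPM in wild type (-0.98 ± 0.34, adjusted p = 0.0304). Rpl39l, a paralog of Rpl39 best known from testis, rose, with 54, 120 and 80 counts in knockout and 4, 0 and 4 counts in wild type (5.09 ± 0.70, adjusted p = 0.000121). Its parent gene Rpl39 had a log2 fold change of -0.50 and was not called, and reads of such close copies can be split between them. Rps3a1 (-0.70; adjusted p = 0.141, and 0.0473 with the block) and Fau (-0.05; adjusted p = 0.914) were not called. Of 84 tested pseudogenes 10 were lower (11.9%) and 1 higher (1.19%), both under the shares over all genes.

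Of 36 initiation factors, which bring the ribosome to the start codon, 7 were lower (19.4%) and 2 higher (5.56%), beside the background of 25.1% lower and 28.7% higher. Eif2b3, a subunit of the exchange factor that recharges eIF2, had 13.7 ± 1.84 CPM in knockout and 26.5 ± 2.78 CPM in wild type (-0.95 ± 0.22, adjusted p = 0.00347), and Eif3f, a subunit of the eIF3 complex, 207 ± 74.1 CPM in knockout and 375 ± 66.6 CPM in wild type (-0.86 ± 0.30, adjusted p = 0.0316). Eif1b rose (1.58 ± 0.27, adjusted p = 0.000560), as did Eif1, which guards the choice of start codon (0.72 ± 0.27, adjusted p = 0.0400). Of 13 elongation and termination factors 3 were lower (23.1%). Eef2, which moves the ribosome along the messenger, had 1825 ± 227 CPM in knockout and 3732 ± 616 CPM in wild type (-1.03 ± 0.31, adjusted p = 0.0168). Eef2k, the kinase that inhibits Eef2, had 40.0, 37.2 and 42.6 CPM in knockout and 241, 259 and 239 CPM in wild type (-2.62 ± 0.21, adjusted p = 1.99e-06).

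Of 23 other transcripts known for a TOP motif, among them Gas5 and several Snhg genes, 6 were lower (26.1%) and 2 higher (8.70%), beside 25.1% and 28.7% of all genes. Their median log2 fold change was -0.59. This list overlaps the initiation, elongation and biogenesis lists. Of its lower genes, Eef1g, Eef2, Eif3f and Eif4b were already counted under initiation or elongation. Eef1g had 507 ± 187 CPM in knockout and 998 ± 181 CPM in wild type (-0.98 ± 0.32, adjusted p = 0.0253). The 2 that rose were Vim (4.88 ± 0.39, adjusted p = 2.37e-06), the intermediate filament protein of fibroblasts and many leukocytes, and the snoRNA host Snhg8 (0.79 ± 0.29, adjusted p = 0.0375). Vim had 3425, 6035 and 5664 CPM in knockout and 150, 171 and 194 CPM in wild type, beside the higher fibroblast and macrophage markers given above.

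Of 57 ribosome biogenesis factors 10 were lower (17.5%) and 2 higher (3.51%), beside 25.1% and 28.7% of all genes. Nop58, a core protein of the particles that methylate ribosomal RNA, had 62.8 ± 13.3 CPM in knockout and 118 ± 18.5 CPM in wild type (-0.91 ± 0.23, adjusted p = 0.00626). Dkc1, the pseudouridine synthase of the H/ACA particles, had 37.1 ± 13.3 CPM in knockout and 73.5 ± 6.98 CPM in wild type (-0.98 ± 0.28, adjusted p = 0.0113). Heatr1, needed for transcription and early processing of ribosomal RNA, went the other way with 165 ± 29.3 CPM in knockout and 39.1 ± 7.41 CPM in wild type (2.08 ± 0.24, adjusted p = 2.99e-05), as did the helicase Ddx52 (0.70 ± 0.20, adjusted p = 0.0136). In the RNA polymerase I machinery 1 of 14 genes was higher and 1 lower (7.14% each). They were Twistnb (0.72 ± 0.20, adjusted p = 0.0105) and Polr1e (-0.65 ± 0.23, adjusted p = 0.0363). Of 6 tested chaperones of newly made ribosomal proteins 3 were lower (50%) and 0 higher. Among these 3 were Tsr2, which guards Rps26 in yeast (-0.84 ± 0.27, adjusted p = 0.0209), and Heatr3 (-0.76 ± 0.21, adjusted p = 0.0108).

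Of 13 tested regulators of ribosomal protein synthesis 1 was higher and 1 lower (7.69% each), beside 28.7% higher and 25.1% lower over all genes. Eif4ebp1, the repressor of cap-dependent initiation that mTOR phosphorylates, had 116, 243 and 219 CPM in knockout and 26.5, 32.9 and 29.7 CPM in wild type (2.70 ± 0.29, adjusted p = 2.15e-05). The groups were far apart. Rps6kb2, one of the S6 kinases, fell (-0.70 ± 0.24, adjusted p = 0.0311). Of 77 mitochondrial ribosomal protein genes 9 were lower (11.7%) and 2 higher (2.6%), both under the shares over all genes, with a median of -0.07. Mrps35 (-0.84 ± 0.25, adjusted p = 0.0152) and Mrpl23 (-0.78 ± 0.28, adjusted p = 0.0351) fell, and Mrps25 (0.87 ± 0.23, adjusted p = 0.00874) and Mrpl52 (0.82 ± 0.28, adjusted p = 0.0313) rose.

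Of the genes named from these lists, Eef2k, Eif1b, Eif2b3, Eif4ebp1, Heatr1, Heatr3, Mrps25, Nop58, Rpl39l, Twistnb and Vim were called in each fit that left out 1 library. The others were not. Without wild type replicate 3 the adjusted p was 0.0528 for Dkc1, 0.0759 for Eef2, 0.0745 for Mrps35, 0.112 for Rack1, 0.0891 for Eif3f, 0.0691 for Eef1g, 0.0605 for Tsr2, 0.108 for Polr1e, 0.0873 for Mrpl23, 0.0590 for Mrpl52, 0.0900 for Snhg8, 0.0938 for Eif1 and 0.0518 for Rps6kb2. Without wild type replicate 2 it was 0.0661 for Ddx52 and 0.0555 for Eef2, and the calls of Rack1, Eif3f, Eef1g, Tsr2, Polr1e, Mrpl23, Mrpl52, Snhg8, Eif1 and Rps6kb2 were lost at 0.0566 to 0.138. Without wild type replicate 1, the calls of Ddx52 (0.0504), Tsr2 (0.0522), Polr1e (0.0538), Mrpl52 (0.0923), Snhg8 (0.123), Eif1 (0.136) and Rps6kb2 (0.127) were lost. Without knockout replicate 1, those of Eef1g (0.0534), Eif3f (0.0709), Mrpl23 (0.0886) and Rack1 (0.0685) were lost, and without knockout replicate 2 those of Eif1 (0.124), Mrpl52 (0.129), Rps6kb2 (0.0899) and Snhg8 (0.154). Upper-quartile scaling ended the calls of Eif1 (0.105), Mrpl52 (0.0803), Snhg8 (0.102) and Ddx52 (0.0533), and library-size scaling those of Mrpl52 (0.0606), Snhg8 (0.0849) and Ddx52 (0.0682). Without a filter on low counts, adjusted p was 0.0746 for Polr1e and 0.0509 for Eif1, and on log2(FPKM + 1) it was 0.0533 for Eif1, 0.0592 for Mrpl52 and 0.0574 for Snhg8. Without knockout replicate 3, adjusted p was 0.0922 for Eef1g, 0.0540 for Eif1, 0.0894 for Eif3f, 0.111 for Mrpl23, 0.0529 for Mrps35, 0.0968 for Polr1e, 0.0976 for Rack1, 0.0911 for Rps6kb2 and 0.0678 for Tsr2.

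**Figure D5:**
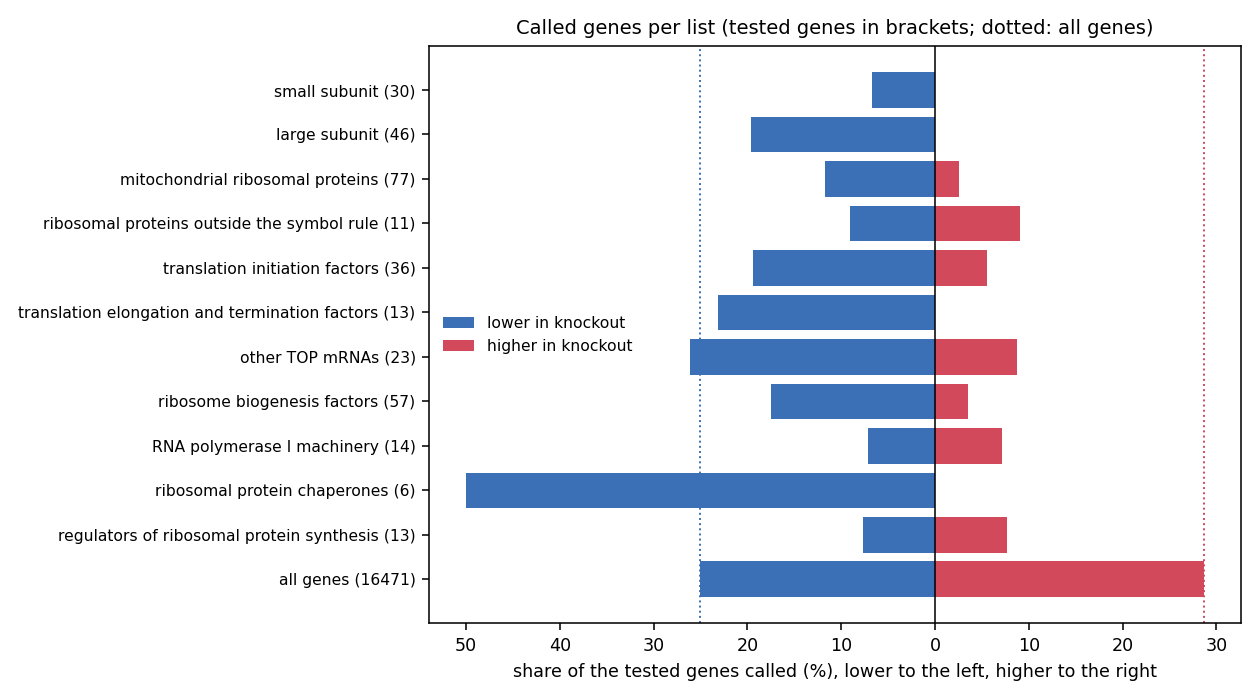
Share of the tested genes of each list called lower (to the left) and higher (to the right) in the libraries labelled knockout (%), with the number tested in brackets and all genes at the bottom. Dotted lines mark the 25.1% lower and 28.7% higher of all 16471 genes. The small subunit lies at 6.67% lower and the large subunit at 19.6% lower, both with 0 higher. This order of the subunits belongs to the fit shown: DESeq2 called 14 of 30 small and 14 of 46 large subunit genes lower.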

How the data were processed

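Per the submitters' processing notes, HISAT2 2.0.5, featureCounts 1.5.0-p3 and the build mm10 were used; for the strand setting and the annotation release the entry is: not given in the sources used here. If strand was not used in counting, reads of overlapping genes on opposite strands cannot be told apart. The authors deposited raw counts per gene and FPKM for the same 6 libraries. The counts were tested with edgeR 4.0.16 (R 4.3.3): TMM factors, expression filter (minimum count 10, minimum total 15), robust quasi-likelihood test on genotype, adjusted p under 0.05 over 16471 genes. Levels are CPM with TMM factors, and FPKM where genes are compared. SE is derived from F and the fold change. The deposited FPKM values were also tested with limma 3.58.1 on log2(FPKM + 1) and log2(FPKM + 0.1).

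Alternatives were other scalings and filters, DESeq2 1.42.0, limma-voom, no robust estimation, protein-coding genes only, pseudogene counts added, each library left out and a replicate block. Deviations from the group means of libraries with the same number correlated at 0.232, 0.339 and 0.176 across genes, others at -0.323 to 0.0734. All 3 exceed 0.1, so the numbers were taken as pairs in the replicate block and the sign-flip test. The fit reported and the other permutation tests left the libraries unpaired. The labels do not say what the numbers mark, and p-values cover only variation between these libraries, which may be technical. The edgeR step was tested on simulated data. The members and lists were chosen with earlier results of these data known. Described one by one were up to 6 called members per subunit and direction, the 3 highest and 2 lowest in FPKM per subunit, members with known roles, and the 2 largest called rises and falls per list. Rpl3, Rpl10a, Rpl31, Rps12, Rpl17, Rpl21, Rpl39, Rpl41, Rps3a1 and Fau were named after their values were seen. Rps23rg1 did not match the table. Some genes that this rule names are not reported here. The TSS windows are RefSeq's on GRCm38.p6; coding lengths are from GENCODE M21, in which 74 of 76 members have the deposited coordinates.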

Additional observations from a re-analysis of the deposited data

How the results depend on the processing

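The members' medians stayed negative and 0 members were called higher in all 20 alternatives listed under processing. In these, 1 to 59 members were called lower (1.32% to 77.6%), beside 14.9% to 31.2% of all genes, and 71 to 75 of 76 were negative. Small and large subunit genes called lower numbered 14 and 20 with upper-quartile scaling (44.7% of members, 31.2% of all genes), 16 and 25 with library size only (53.9%, 28.6%), 7 and 16 without a filter (30.3%, 14.9%), 14 and 14 with DESeq2 (36.8%, 24.9%), 9 and 15 with limma-voom (31.6%, 26.6%) and 15 and 23 with the replicate block (50%, 29.1%). The small subunit count was 5 with protein-coding genes only (21.1% of members, 26.5% of all genes) and 1 on log2(FPKM + 1) (10.5%, 25.4%). Leaving out 1 library gave 0 to 22 small and 1 to 37 large subunit genes, with medians of -1.06 to -0.48 and -1.01 to -0.44. It gave 17 to 69 called genes of the companion lists, beside 19.6% to 26.2% of all genes lower and 25% to 29.5% higher. These lists gave 48 in the fit reported, 79 with upper-quartile scaling, 78 with library size only and 82 with the block. In the same order, 25.1%, 31.2%, 28.6% and 29.1% of all genes were called lower, and 28.7%, 25.2%, 25.5% and 30.9% higher. The numbers tested are given list by list above. Upper-quartile and library-size scaling put the median of all genes at -0.22 and -0.18. The block ended no call of a gene described. Rpl38 turned negative with upper-quartile scaling (-0.14), library size (-0.14), limma-voom (-0.033), the block (-0.042), FPKM + 1 (-0.0093) and FPKM + 0.1 (-0.0098), and ran from -0.38 to 0.32 with 1 library left out. Rpl24 turned negative with upper-quartile scaling (-0.051) and library size (-0.029), and ran from -0.19 to 0.31 with 1 library left out. Rps10 was -0.56 with pseudogene counts added and -0.42 to 0.67 with 1 library left out, and Rpl13a -0.43 to 0.0017. Scaled to the members' summed count, added after seeing the data, values turned positive for Rpl11 (0.063), Rplp2 (0.14), Rpl27a (0.18), Rpl13a (0.51), Rps14 (0.081), Rps20 (0.24), Rps27a (0.30) and Rps15a (0.35), and the calls of the 7 called members described were lost, at adjusted p of 0.187 to 0.604. Such a scale removes a change that the members share. It tests no cause, and the cause of the members' lower values was not tested.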
